A study of Mus musculus with 18 samples.

Results

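The genes described here are the replication-dependent histone genes, 69 genes of the 24485 in the deposited tables, chosen as every gene whose symbol places it in the mouse histone clusters Hist1, Hist2, Hist3 or Hist4. They comprise 6 H1 genes, 19 H2A genes, 19 H2B genes, 12 H3 genes and 13 H4 genes, of which 55 lie in Hist1, 10 in Hist2, 3 in Hist3 and 1 in Hist4. At least 1 read was assigned to 67 of them, and Hist1h2aa and Hist1h2ba were at 0 in every library. The cells were bone marrow-derived macrophages (BMDMs), grown in L929-conditioned medium from the marrow of 3 male Il10-/- mice on the C57BL/6J background, aged 12 weeks. Every group therefore lacked endogenous IL-10, the cytokine that restrains macrophage activation, and each group held 3 libraries, which the design calls biologically matched between groups. The groups without lipopolysaccharide were Unstimulated cells, cells given JQ1 (500 nM) and cells given recombinant IL-10 (10 ng/mL). The same 3 conditions with lipopolysaccharide (50 ng/mL) were named LPS, LPS + JQ1 and LPS + IL-10. Pretreatment lasted 12 hours, and LPS was then added for 4 hours. Cells without LPS received PBS for those 4 hours. The labels give cells with neither JQ1 nor IL-10 as untreated, and the methods name a vehicle control. JQ1 is the active enantiomer (+)-JQ1, which blocks the acetyl-lysine pockets of the BET proteins. LPS is a component of the bacterial outer membrane that activates macrophages through TLR4.

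Replication-dependent histone genes supply the core histones H2A, H2B, H3 and H4, around which DNA is wrapped, and the linker histone H1, which binds the DNA between nucleosomes. They are transcribed mainly in S phase, lie in clusters, and as a rule have no introns. Their messenger RNAs typically end in a conserved hairpin bound by the protein Slbp in place of a poly(A) tail, and some of these genes also give polyadenylated transcripts in cells that have left the cell cycle. The libraries were made by removal of ribosomal RNA and not by poly(A) selection, so RNA without a poly(A) tail could be captured.

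The hairpin is the sequence that most sets these genes apart. A 16-base hairpin, with a stem of 6 base pairs and a loop of 4 bases, was searched for within 100 bases after the stop codon. It was found in 63 of the 67 genes with an annotated stop codon (94%). Of all 21930 protein-coding genes searched the same way in mm9, these histone genes included, 148 had it (0.675%). The loop was TTTC in 49 of the 63 genes, TTTA in 9, TTTT in 3, TCTC in 1 and TCTT in 1. The sequences below are those of genes to which the results return, in mm9 and read on the strand of the gene, with the loop in capitals. They lie at chr13:23836916-23836931 (Hist1h3c, minus strand), chr13:23844689-23844704 (Hist1h3b, plus strand), chr13:22132835-22132850 (Hist1h4i, minus strand), chr13:23852669-23852684 (Hist1h4a, minus strand) and chr13:23627758-23627773 (Hist1h3g, plus strand), all after the stop codon.
Hist1h3c: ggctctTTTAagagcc
Hist1h3b: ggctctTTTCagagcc
Hist1h4i: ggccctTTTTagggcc
Hist1h4a: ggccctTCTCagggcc
Hist1h3g: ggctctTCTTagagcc
Both H4 genes shown have the stem ggccct, and the H3 genes have ggctct. Hist1h3c and Hist1h3b, which fell with JQ1, differ from each other only in the loop.

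Promoter windows (250 bases before to 50 after the RefSeq start, GRCm38.p6) were found for 62 of the 69 genes. They were searched on both strands for TATAAA, the TATA box, for CCAAT, the NF-Y motif, and for ATTTGCAT, the octamer bound by POU factors such as Oct1. TATAAA occurred in 35 of the 62 genes (56.5%) against 15.7% of 27025 genes, CCAAT in 53 (85.5%) against 41.1%, and ATTTGCAT in 14 (22.6%) against 1.97%. CCAAT was in the window of each H1, H2A, H2B and H3 gene that had one and in 3 of 12 H4 genes, while ATTTGCAT was in 7 of 18 H2A and 7 of 16 H2B genes and in no H1, H3 or H4 window. The 150 bases before the start are shown for 3 genes that moved far and in different directions, Hist1h3c (chr13:23745522-23745671, minus strand), Hist1h2ab (chr13:23750938-23751087, plus strand) and Hist1h4i (chr13:22041363-22041512, minus strand), in GRCm38.p6 with matches to the 3 motifs in capitals.
Hist1h3c: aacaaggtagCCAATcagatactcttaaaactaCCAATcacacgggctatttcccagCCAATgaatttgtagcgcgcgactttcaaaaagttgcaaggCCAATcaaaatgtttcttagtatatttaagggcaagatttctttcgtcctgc
Hist1h2ab: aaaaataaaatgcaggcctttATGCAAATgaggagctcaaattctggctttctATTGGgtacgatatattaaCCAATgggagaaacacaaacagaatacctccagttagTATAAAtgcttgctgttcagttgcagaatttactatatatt
Hist1h4i: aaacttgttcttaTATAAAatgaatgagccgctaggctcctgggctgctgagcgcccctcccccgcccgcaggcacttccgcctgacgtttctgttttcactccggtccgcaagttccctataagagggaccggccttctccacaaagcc
Hist1h3c, the gene that fell most with JQ1 during LPS, has 4 CCAAT matches in this stretch and no TATAAA, Hist1h2ab has all 3 motifs, and Hist1h4i, which rose with JQ1, has TATAAA alone. The matches describe these letters and were not tested as sites.

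The libraries held 6781952 to 28289498 expected counts, the lowest being Unstimulated replicate 2. The 7 macrophage markers summed to 22865 to 24626 TPM (RSEM's length-scaled abundance, which has the same total in every library) in Unstimulated, 28926 to 29055 in JQ1, 14070 to 15492 in LPS and 19568 to 22550 in LPS + JQ1 libraries. Single markers did not follow these sums. With LPS 2 of the 7 were called higher and 1 lower (31.6% and 32.9% of all genes). With JQ1 alone 3 were higher and 3 lower (21.9% and 23.7%). With JQ1 during LPS 1 was higher and 5 lower (24.4% and 32.9%). The summed T-cell, B-cell, dendritic and erythroid markers reached at most 4.46 TPM, with Cd3e and Cd3g under 1 TPM throughout, and the fibroblast markers at most 5.65 TPM. The neutrophil markers summed to 2.91 to 37.6 TPM, with Ly6g, Mpo and Elane each under 1 TPM in every library. The part of these shifts in the histone results was not tested. In bulk RNA such as these libraries, fewer cells in S phase and less histone RNA per cell cannot be told apart.

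Histone RNA made up 1.57% ± 0.149 (SD, n = 3) of all TPM in Unstimulated cells, 1.12% ± 0.0406 in JQ1, 0.489% ± 0.0387 in LPS and 1.195% ± 0.0420 in LPS + JQ1. Summed over all 69 genes, the level was 14993, 14740 and 17446 TPM in Unstimulated replicates 1 to 3, 10760, 11294 and 11557 in JQ1, 5001, 5202 and 4454 in LPS, and 11472, 12140 and 12247 in LPS + JQ1. The LPS libraries were thus the lowest of these 4 groups and overlapped none of the others, while the JQ1 and LPS + JQ1 libraries overlapped each other. With IL-10 the sums were 12741, 13598 and 16208 TPM without LPS and 4788, 5084 and 4394 TPM with LPS, ranges that overlap those of the matching groups without IL-10. Each IL-10 library was nevertheless below the same-numbered library without IL-10. These sums depend less than single genes on how reads shared by near-identical genes were divided, and they were not tested.

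**Figure D1:**
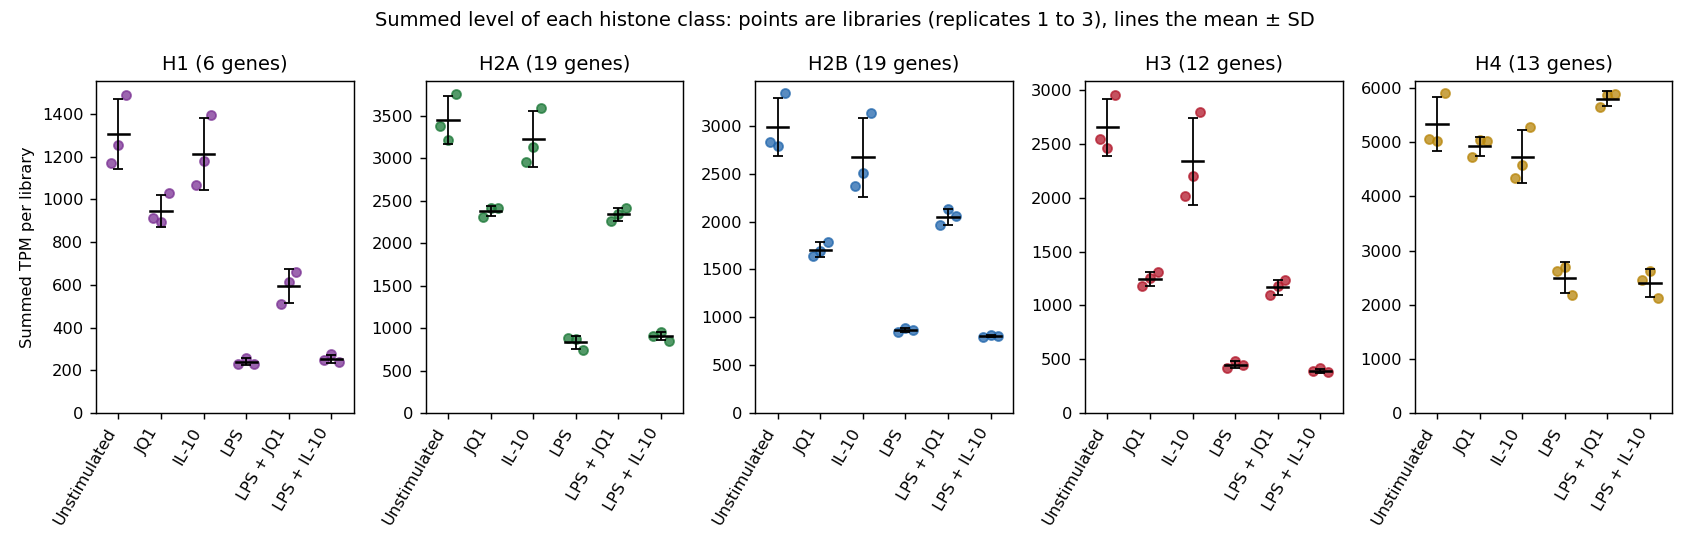
Summed TPM of the 6 H1, 19 H2A, 19 H2B, 12 H3 and 13 H4 genes in each of the 18 libraries (vertical axes, linear from 0), by group. Points are libraries, and bars give the mean ± SD of 3. In each class the LPS and LPS + IL-10 libraries sit lowest and every LPS + JQ1 library lies above every LPS library.

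The classes did not shift evenly. H3 genes summed to 2551, 2459 and 2956 TPM in Unstimulated libraries and to 418, 485 and 444 TPM with LPS, which is 0.169 of the Unstimulated level on the mean log2 ratio. H4 genes, the most abundant class, summed to 5058, 5020 and 5903 TPM and to 2629, 2697 and 2174 TPM with LPS, or 0.468 of that level. Both ratios depend on the scale. The median log2 change of all genes with LPS was -0.69 on log2(TPM + 1) and -0.07 with median-of-ratios scaling. With the latter, the median was -2.02 for H3 and -0.94 for H4 genes. The most abundant H4 genes, Hist1h4d, Hist1h4h, Hist1h4c and Hist1h4m, were at 0.40, -0.57, 0.19 and 0.03. The H4 share of histone TPM was 33.9% ± 0.164 (SD, n = 3) in Unstimulated, 43.9% ± 0.636 in JQ1, 51.1% ± 2.00 in LPS and 48.5% ± 0.584 in LPS + JQ1. The H3 share moved the other way, from 16.9% ± 0.174 in Unstimulated to 11.1% ± 0.184 in JQ1 and 9.21% ± 0.807 in LPS. The RNA was also less evenly spread over genes: the 10 highest genes of a library held 42.8% ± 0.969 of histone TPM in Unstimulated and 64.7% ± 2.19 in LPS cells.

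Levels per transcript length differed widely between genes of 1 class. Over the 18 libraries the highest mean TPM in each class was that of Hist1h1c (346 TPM), which encodes linker histone H1.2, Hist2h2aa1 (902 TPM), Hist1h2bc (413 TPM), Hist1h3e (320.5 TPM) and Hist1h4d (821 TPM). The next H4 genes were Hist1h4h (742 TPM), Hist1h4c (715 TPM) and Hist1h4m (699 TPM). In Unstimulated libraries Hist1h4c and Hist1h4m overlapped, and Hist1h4h lay above both. Hist1h1t, the testis H1 gene, was at 0 to 2.23 TPM, and the pseudogene Hist3h2bb-ps at 0.39 to 18.2 TPM. Reads cannot always be assigned: 29 of the 69 genes have fewer than 50% of their 50-base stretches, the length of a read, unique to them. These stretches are from GENCODE transcripts, whereas pairs of reads were counted over RefSeq transcripts, so the percentages are only a guide. Hist1h2bq and Hist1h2br carried identical values in all libraries, and Hist2h2aa1 with Hist2h2aa2, Hist1h2ao with Hist1h2ap, Hist1h4m with Hist1h4n and Hist2h3c1 with Hist2h3c2 are such near-copies, so values of these genes are uncertain one by one.

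**Figure D2:**
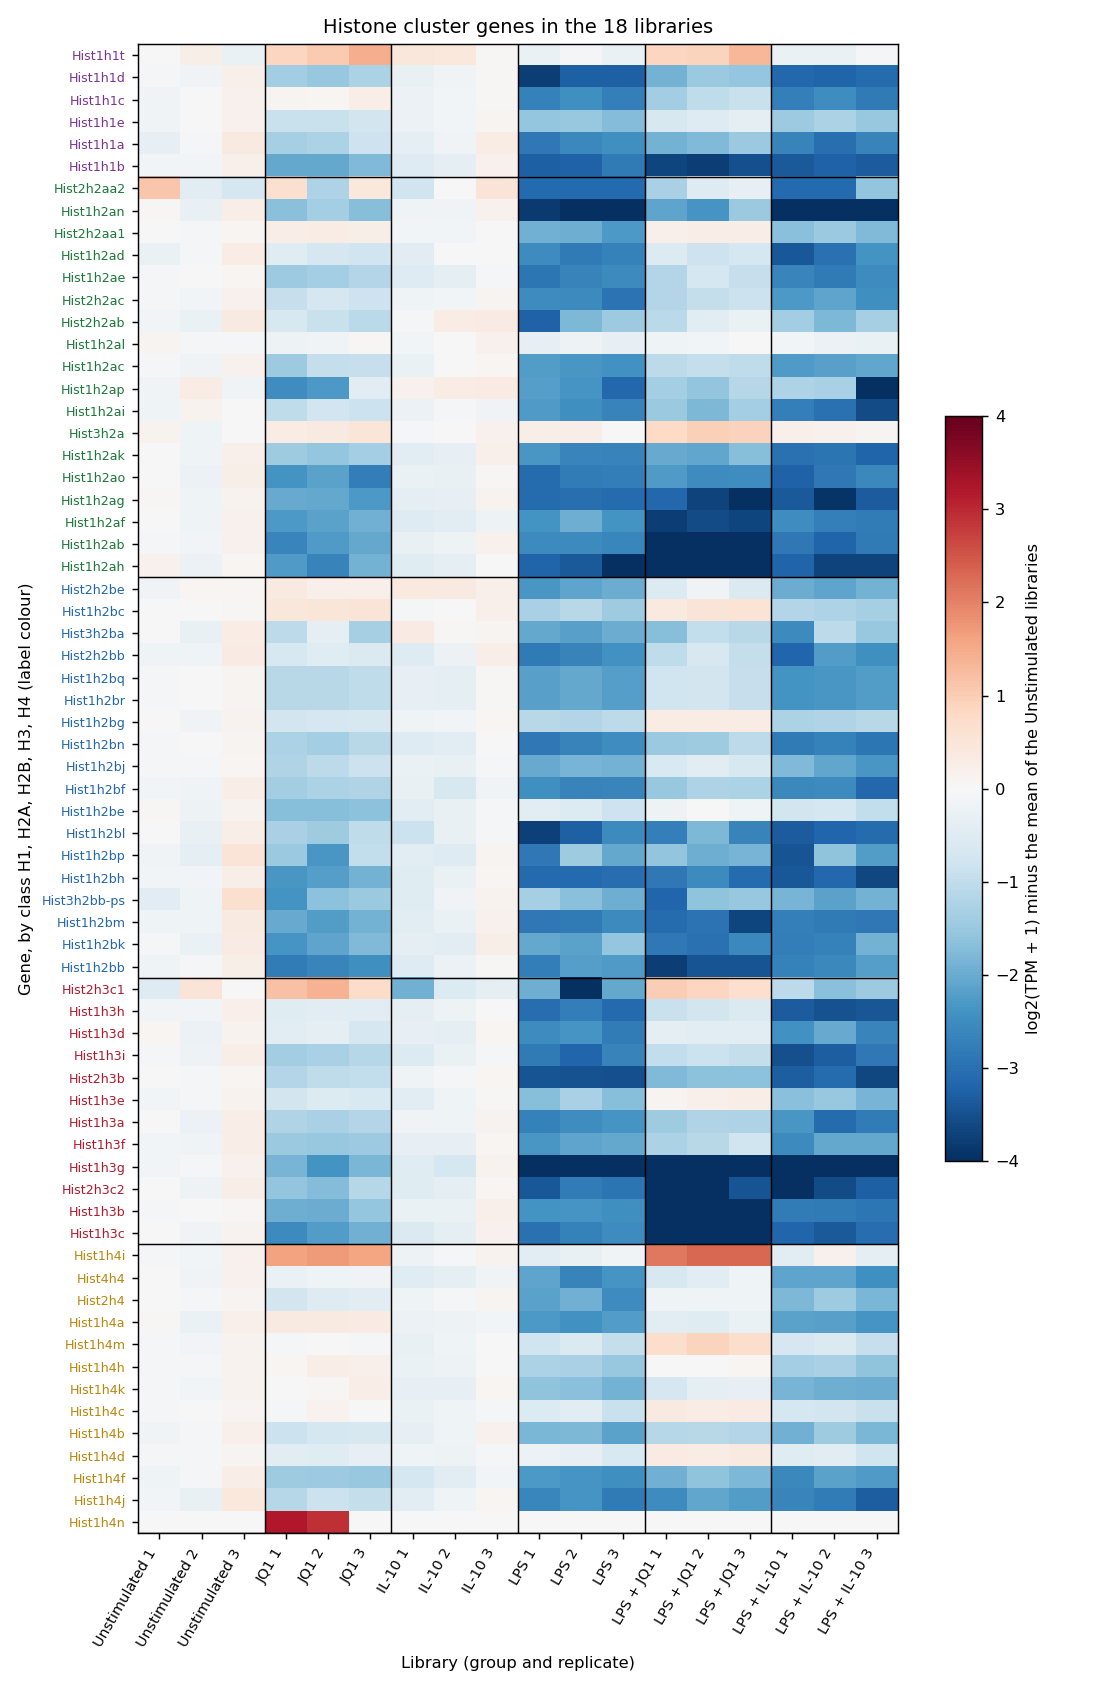
The 67 genes with a read (rows, by class) in the 18 libraries (columns). Colour is log2(TPM + 1) minus the mean of the 3 Unstimulated libraries, with colours ending at 4 and -4. Most rows are blue in the LPS and LPS + IL-10 columns, and Hist1h4i is red in the JQ1 and LPS + JQ1 columns.

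LPS lowered most histone genes. Against Unstimulated cells, 57 of 67 genes tested fell (32.9% of all genes tested were called lower in this comparison) and 3 rose (31.6% of all genes were called higher), with a median log2 fold change of -1.80 against -0.07 over all genes. By class, 5 of 6 H1, 15 of 18 H2A, 17 of 18 H2B, 12 of 12 H3 and 8 of 13 H4 genes fell. The fold changes come from DESeq2 with median-of-ratios scaling. Scaling by total counts moves the median of all genes in the LPS comparison to -1.02, and TPM values carry the same kind of shift, so a TPM level falls further than the fold change printed beside it. The same scaling moves that median to -0.18 for JQ1 without LPS and to 0.25 for JQ1 during LPS.

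Among linker histones, Hist1h1d (H1.3) was at 210, 202 and 258 TPM in Unstimulated and at 15.5, 22.1 and 22.2 TPM in LPS libraries, with no overlap, a log2 fold change of -2.70 ± 0.14 (SE, adjusted p = 1.94e-78). Hist1h1e (H1.4) fell less, from 291, 320 and 364 TPM to 110, 112 and 96.2 TPM (-0.83 ± 0.13, adjusted p = 9.55e-10). The H3 gene Hist2h3b went from 356, 339 and 374 TPM to 31.3, 31.2 and 30.2 TPM, and its log2 fold change was -2.74 ± 0.14 (adjusted p = 1.48e-78). Both of its groups were tight, and the gap between them was far wider than either range. Hist2h2aa2, at 17.8, 5.31 and 4.42 TPM in Unstimulated libraries, was at 0 in every LPS library, so its fitted value is not read. Among the others the H3 gene Hist1h3g had the lowest fitted log2 fold change, -4.76 ± 0.41 (adjusted p = 6.42e-30), from 96.8, 97.8 and 118 TPM to 3.67, 2.77 and 0 TPM, the last being 1 library without a read. Hist1h2an, an H2A gene, fell from 60.4, 47.4 and 71.6 TPM to 3.25, 1.18 and 2.24 TPM (-4.03 ± 0.42, adjusted p = 3.65e-21), although only 14.2% of its 50-base stretches are unique. Hist1h2ah, another H2A gene, fell from 83.6, 62.0 and 77.7 TPM to 7.19, 6.36 and 3.23 TPM (-2.92 ± 0.31, adjusted p = 2.42e-20).

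The 3 genes called higher with LPS were Hist3h2a, Hist1h4i and Hist1h4d. Hist3h2a, the H2A gene of the small Hist3 cluster, was at 235, 190 and 218 TPM in Unstimulated and 252, 257 and 218 TPM in LPS libraries, ranges that overlap on this scale. After median-of-ratios scaling they did not overlap, and its log2 fold change was 0.97 ± 0.12 (adjusted p = 2.01e-15). Hist1h4i (0.47 ± 0.18, adjusted p = 0.0138) and Hist1h4d (0.40 ± 0.15, adjusted p = 0.0132) were higher after that scaling, with TMM factors (0.39 and 0.33) and in edgeR, and lower by total-count scaling (-0.46 and -0.53) and on log2(TPM + 1) (-0.30 and -0.40). No histone gene was called higher by total-count scaling or on log2(TPM + 1), and 1 gene was without Unstimulated replicate 1 or without LPS replicate 2. The abundant Hist1h4c (0.19 ± 0.15, adjusted p = 0.296), Hist1h4m (0.03 ± 0.15, adjusted p = 0.892) and the H2B gene Hist1h2be (0.18 ± 0.15, adjusted p = 0.308) did not pass the test. Hist3h2a lies 172 bases from Hist3h2bb-ps on the opposite strand, and that pseudogene fell (-1.21 ± 0.52, adjusted p = 0.0333).

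Without LPS, JQ1 lowered 43 of 67 genes (23.7% of all genes tested were called lower) and raised 9 (21.9% of all genes were called higher), with a median log2 fold change of -0.84 against -0.000606 over all genes. Of the H2B genes 14 of 18 fell, of the H2A genes 13 of 18, of the H3 genes 8 of 12, of the H1 genes 4 of 6 and of the H4 genes 4 of 13. The 9 that rose were Hist1h1c, Hist1h1t, Hist1h2bc, Hist1h4a, Hist1h4h, Hist1h4i, Hist2h2aa1, Hist2h2be and Hist3h2a. The comparison shares the Unstimulated libraries with the LPS comparison. The summed H4 level was 1.07 times the Unstimulated level in normalised counts and 0.926 times in TPM, so the direction of that sum depends on the scale.

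The genes that fell furthest with JQ1 alone were core histone genes of Hist1. Hist1h2bb, an H2B gene, went from 201, 212 and 266 TPM to 31.5, 34.9 and 40.5 TPM (log2 fold change -2.48 ± 0.19, adjusted p = 1e-35). Hist1h2ab, its H2A neighbour, went from 274, 264 and 321 TPM to 44.6, 58.1 and 68.8 TPM (-2.13 ± 0.17, adjusted p = 6.23e-33). Every JQ1 library was well below every Unstimulated library for both genes. Hist1h2ao fell by 2.26 ± 0.17 on the log2 scale (adjusted p = 2.21e-39), but none of its 50-base stretches is unique to it. Hist1h2ah fell by 2.12 ± 0.28 (adjusted p = 2.31e-13) and Hist3h2bb-ps by 2.05 ± 0.55 (adjusted p = 0.000695).

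Hist1h4i moved most in the other direction. This H4 gene was at 75.9, 71.5 and 87.7 TPM in Unstimulated and at 240, 255 and 233 TPM in JQ1 libraries (1.80 ± 0.17, adjusted p = 1.95e-25). Hist1h2bc, the H2B gene with the highest level, went from 429, 431 and 454 TPM to 600, 613 and 627 TPM (1.16 ± 0.10, adjusted p = 2.79e-28). Its fold depends on the unit, being 0.48 on log2(TPM + 1), and it is counted over 2 transcripts, whose part in this was not tested. Neither gene's groups overlapped. The other rises were smaller: Hist3h2a 0.56 ± 0.12 (adjusted p = 1.21e-05), Hist1h4a 0.52 ± 0.12 (adjusted p = 3.16e-05), Hist2h2be 0.51 ± 0.17 (adjusted p = 0.00634), Hist2h2aa1 0.45 ± 0.12 (adjusted p = 0.000603), Hist1h4h 0.36 ± 0.14 (adjusted p = 0.0276) and Hist1h1c 0.35 ± 0.14 (adjusted p = 0.0332). Hist1h1t had at most 1 expected count in each Unstimulated library and 6 to 11 in JQ1 libraries, so no fold is given.

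During LPS the JQ1 difference was mostly upward. Of 67 genes tested, 43 rose in LPS + JQ1 against LPS (24.4% of all genes tested were called higher) and 12 fell (32.9% of all genes were called lower), with a median log2 fold change of 1.03 against -0.11 over all genes. Rises were seen in 5 of 6 H1, 10 of 18 H2A, 10 of 18 H2B, 8 of 12 H3 and 10 of 13 H4 genes, and no H4 gene fell. In Hist2, 9 of 10 genes rose. Among the 38 tested genes with at least 50% unique 50-base stretches 29 rose and 4 fell, and among the 29 with fewer 14 rose and 8 fell. This comparison shares the LPS libraries with the LPS comparison, so genes that were low in LPS libraries enter both, while it shares no library with the comparison of JQ1 and Unstimulated cells.

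Hist2h2aa1, the most abundant H2A gene, was at 288, 283 and 224 TPM in LPS and at 1281, 1316 and 1340 TPM in LPS + JQ1 libraries (log2 fold change 2.01 ± 0.12, adjusted p = 6.1e-60), with its near-copy Hist2h2aa2 at 0 in all LPS libraries and at 2.49, 5.06 and 5.83 TPM in LPS + JQ1. Hist1h4i went from 56.9, 62.8 and 70.7 TPM to 341, 389 and 389 TPM (2.28 ± 0.16, adjusted p = 1.38e-42). Hist1h2bc went from 178, 201 and 163 TPM to 575, 620 and 636 TPM (1.83 ± 0.10, adjusted p = 5.12e-67). All 3 genes were higher in LPS + JQ1 than in Unstimulated libraries by TPM. The linker histone gene Hist1h1c also rose with LPS + JQ1, from 81.8, 97.8 and 80.3 TPM to 204, 269 and 290 TPM (1.25 ± 0.15, adjusted p = 1.52e-16), and stayed below its Unstimulated range of 487 to 608 TPM. Hist1h3i, an H3 gene, went from 33.9, 26.6 and 38.6 TPM to 126, 137 and 129 TPM (1.72 ± 0.18, adjusted p = 1.07e-21). Hist2h2be, an H2B gene, had a log2 fold change of 2.59 ± 0.27 (adjusted p = 3.92e-21) at 0.38 to 0.73 TPM in LPS and 3.63 to 5.30 TPM in LPS + JQ1. Hist1h2an rose by 2.49 ± 0.44 on the log2 scale (adjusted p = 4.35e-08), with 3.84 to 7.64 expected counts in each LPS library. Hist4h4, the H4 gene of the Hist4 cluster, rose from 19.8, 13.3 and 16.6 TPM to 56.8, 66.9 and 78.5 TPM (1.76 ± 0.21, adjusted p = 2.8e-16).

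The 12 genes that fell with JQ1 during LPS were led by Hist1h3c, an H3 gene at 32.9, 39.8 and 45.7 TPM in LPS and 3.71, 6.06 and 4.98 TPM in LPS + JQ1 libraries (log2 fold change -3.33 ± 0.31, adjusted p = 7.85e-26). Hist1h3b, which encodes the same class of histone, went from 55.3, 56.3 and 52.6 TPM to 12.1, 12.5 and 10.2 TPM (-2.51 ± 0.23, adjusted p = 2.01e-27). Hist1h2ab went from 47.8, 48.0 and 46.4 TPM to 13.6, 11.8 and 14.8 TPM (-2.11 ± 0.22, adjusted p = 2.95e-21). The LPS and LPS + JQ1 libraries of these 3 genes did not overlap. Hist1h2ah had a fitted log2 fold change of -2.80 ± 0.57 (adjusted p = 2.52e-06), with 10.1 to 26.5 expected counts in LPS libraries and 0 to 7.12 in LPS + JQ1 libraries. Hist1h3g was called lower too (adjusted p = 0.0256), but its libraries overlapped, at 0 to 10.5 against 0 to 4.61 expected counts, and no fold is given. Hist2h3c2 was called lower (-1.94 ± 0.83, adjusted p = 0.0362) while its near-copy Hist2h3c1 was called higher (3.36 ± 0.76, adjusted p = 2.83e-05), so neither call can be read as that gene's own.

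**Figure D3:**
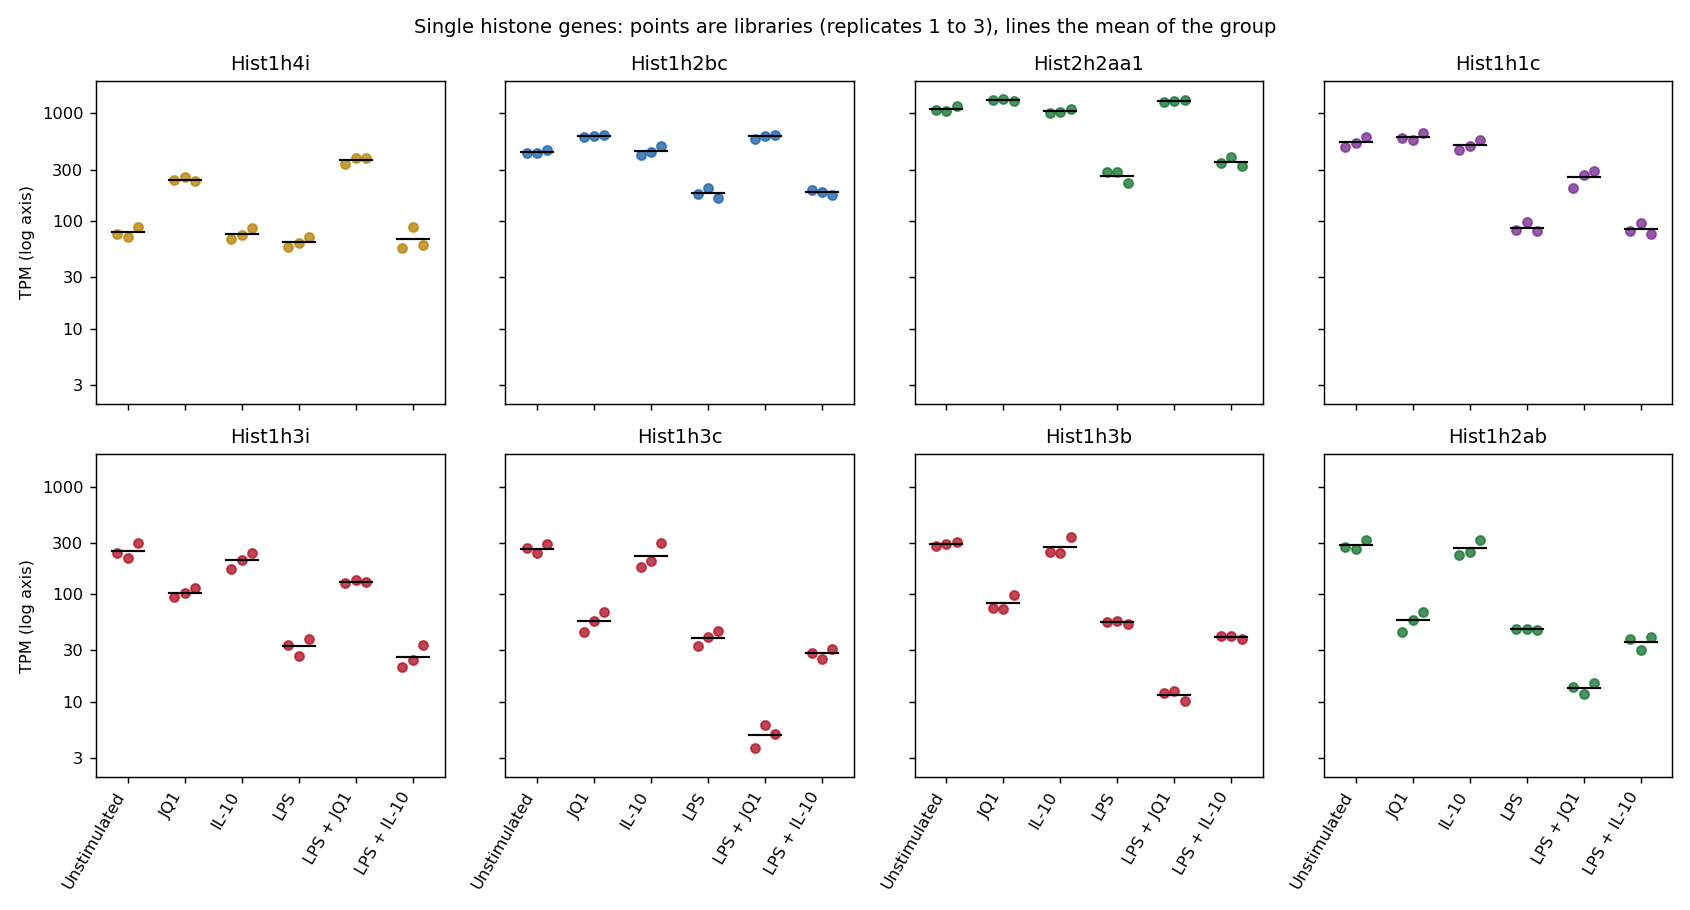
TPM of 8 histone genes in the 18 libraries (shared log axis), by group. Points are libraries and lines the mean of 3. Hist1h4i, Hist1h2bc, Hist2h2aa1, Hist1h1c and Hist1h3i are higher in LPS + JQ1 than in LPS, and Hist1h3c, Hist1h3b and Hist1h2ab are lowest in LPS + JQ1.

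Set side by side, the JQ1 calls without and during LPS fell into few combinations. Of the 67 genes, 24 were lower without LPS and higher during LPS, 11 were lower in both, 9 were higher in both, 10 were higher during LPS alone, 8 were lower without LPS alone, 1 (Hist2h3c2) was lower during LPS alone, and 4 passed neither test. The 11 genes lower in both were the linker histone gene Hist1h1b (H1.5), the H2A genes Hist1h2ab, Hist1h2af, Hist1h2ag and Hist1h2ah, the H2B genes Hist1h2bb, Hist1h2bk and Hist1h2bm, and the H3 genes Hist1h3b, Hist1h3c and Hist1h3g. All are in Hist1, as are 53 of the 67 genes tested, and none encodes H4, as 13 of the 67 do. No gene was higher without LPS and lower during LPS. The 2 comparisons share no library. Over all genes tested, 21.9% were called higher and 23.7% lower without LPS, and 24.4% and 32.9% during LPS. The share of all genes in each combination was not counted.

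The change of the JQ1 difference with LPS was tested as an interaction. It was above 0 for 49 of 66 genes (17.7% of all genes tested were called higher) and below 0 for 2 (23.8% of all genes were called lower), with a median of 1.63 against -0.05 over all genes on the log2 scale. Hist1h3i was among the genes with the greatest change (2.82 ± 0.24, adjusted p = 1.17e-30), from -1.10 ± 0.16 without LPS to 1.72 ± 0.18 during LPS. Hist1h1d changed by 2.74 ± 0.19 (adjusted p = 6.25e-43), from -1.21 ± 0.13 to 1.53 ± 0.15. Hist1h3c (-1.28 ± 0.37, adjusted p = 0.00203) and Hist1h3b (-0.87 ± 0.28, adjusted p = 0.00665) fell further during LPS than without it, a call that total-count scaling and log2(TPM + 1) do not make for either gene. For Hist1h4i the interaction did not pass the test (0.48 ± 0.23, adjusted p = 0.0887).

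**Figure D4:**
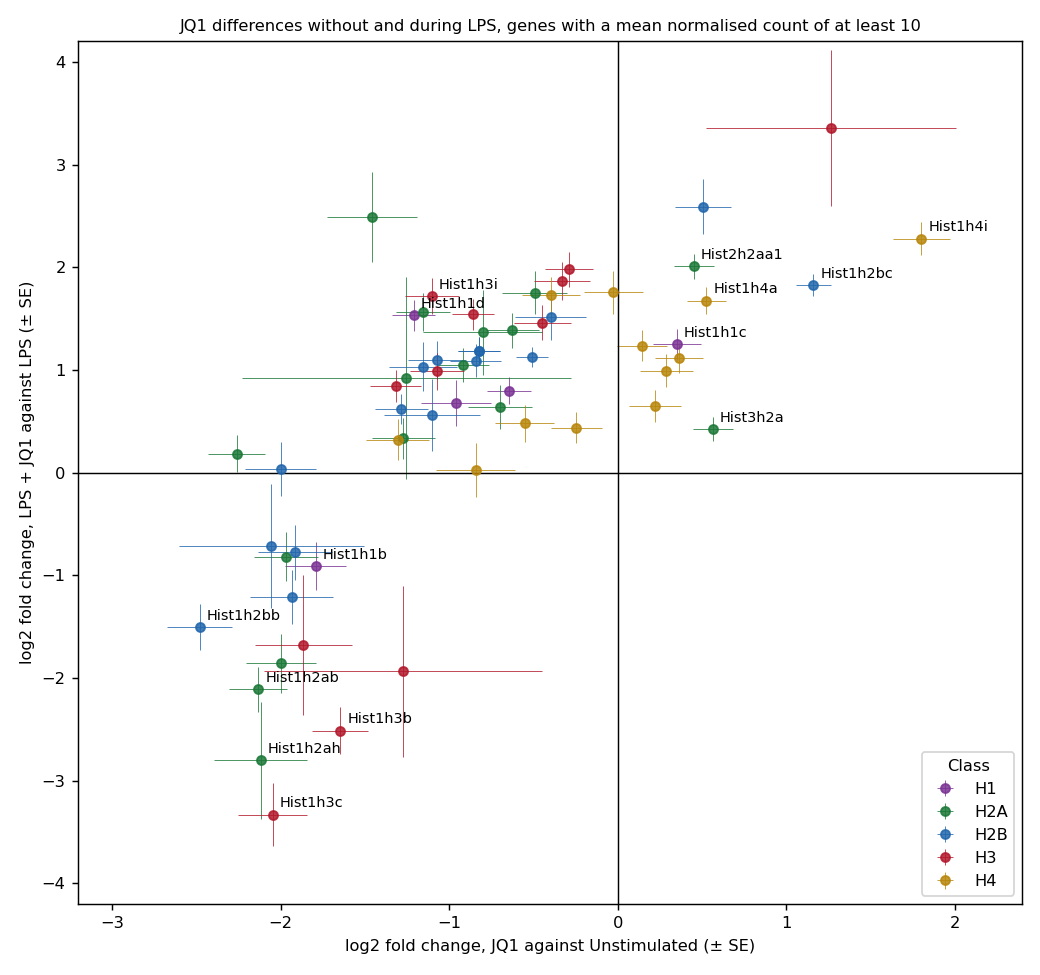
Log2 fold change of JQ1 against Unstimulated (horizontal) and of LPS + JQ1 against LPS (vertical) for histone genes with mean normalised counts of 10 or more, Hist2h2aa2 left out. Points are genes, coloured by class, with SE bars. Hist1h3c, Hist1h3b, Hist1h2ab and Hist1h2bb sit at lower left, Hist1h4i, Hist1h2bc and Hist2h2aa1 at upper right, and the lower right is empty.

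Several genes that fell with JQ1 in both states were neighbours, a grouping chosen after their values were seen. In mm9 order Hist1h3c, Hist1h2bb, Hist1h2ab and Hist1h3b follow one another at chr13:23836842-23844755. During LPS their log2 fold changes with JQ1 were -3.33, -1.50, -2.11 and -2.51, and without LPS -2.05, -2.48, -2.13 and -1.65. The genes on each side went the other way during LPS: Hist1h1c, 4606 bases away, rose by 1.25 ± 0.15 and Hist1h4b, 4050 bases away, by 0.48 ± 0.18 (adjusted p = 0.0154). A second run was Hist1h2af (-1.86 ± 0.28, adjusted p = 2.97e-10) and Hist1h3g, and another the pair Hist1h2ah and Hist1h2bk (-1.22 ± 0.26, adjusted p = 1.25e-05), which are transcribed apart from each other across 177 bases. Hist1h4i lies 4516 bases beyond Hist1h2bk and rose. Under 50% of 50-base stretches are unique in Hist1h2ab (46.2%), Hist1h3b (39.6%), Hist1h2af (20.3%), Hist1h3g (45.9%), Hist1h2ah (33.0%) and Hist1h2bk (26.3%). Hist1h3c (53.0%) and Hist1h2bb (56.2%) lie just above that. The Hist1h3g libraries overlapped, as given above.

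**Figure D5:**
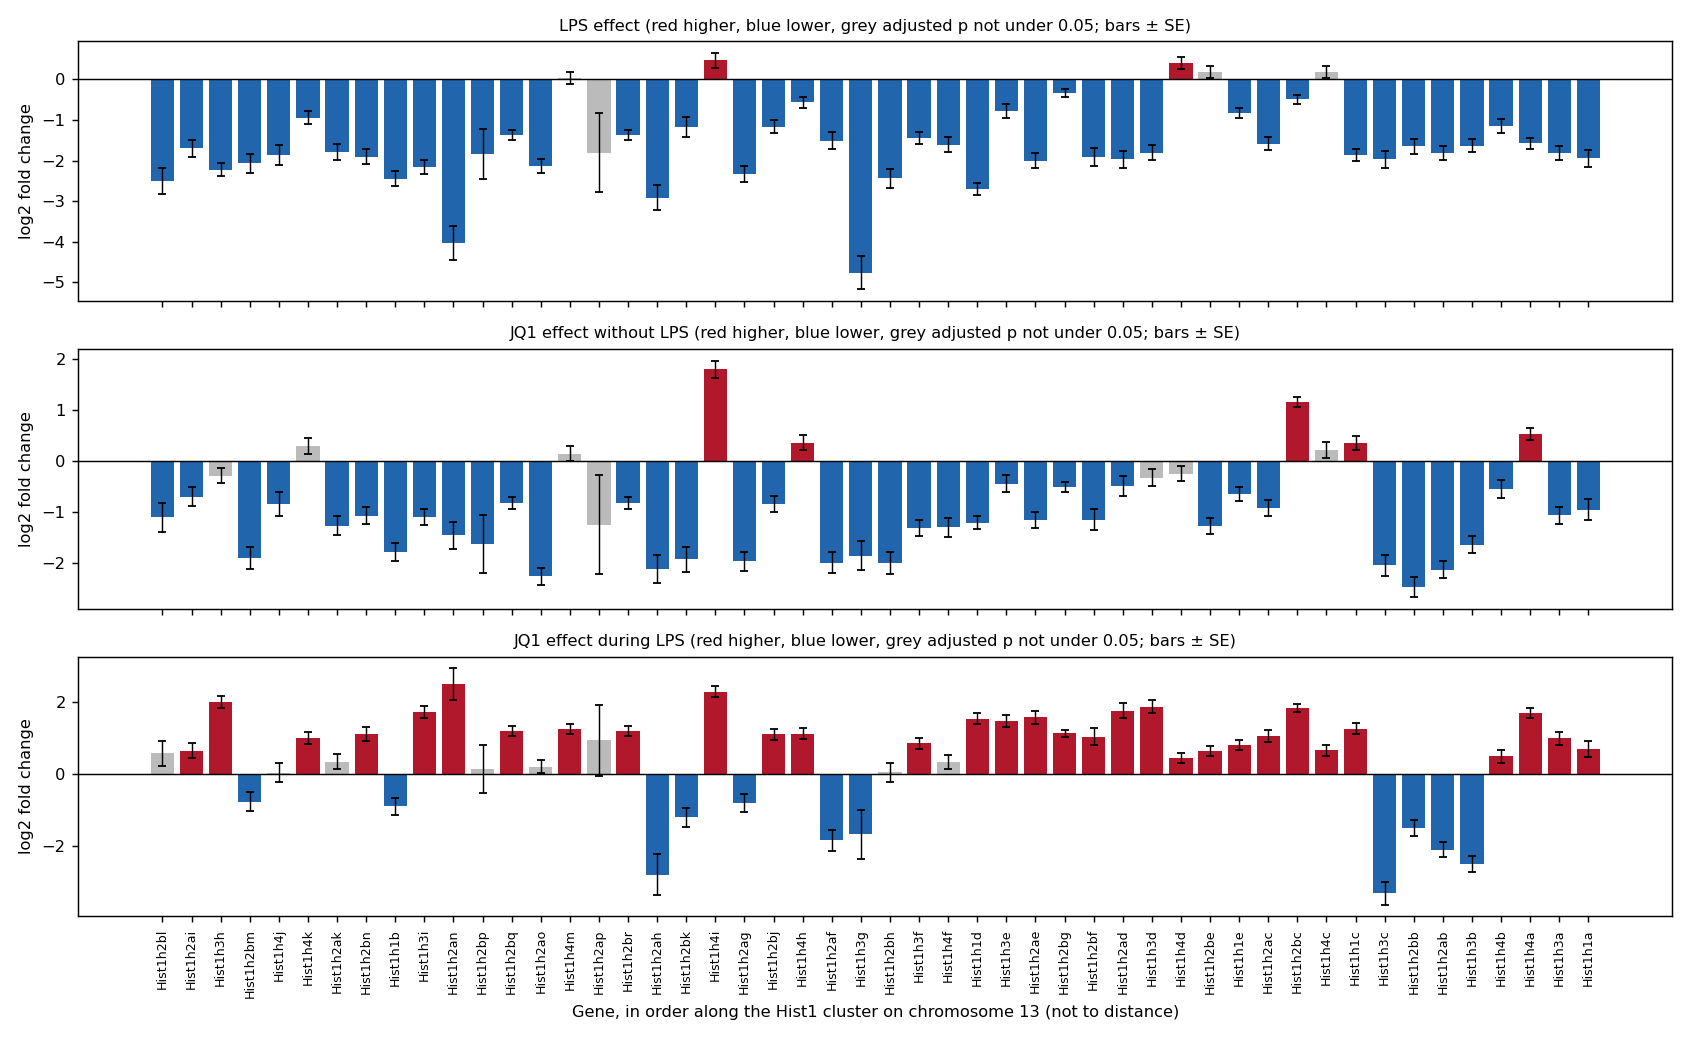
Log2 fold change (vertical, bars with SE) of the Hist1 genes in chromosomal order, not to distance, for LPS, for JQ1 without LPS and for JQ1 during LPS. Hist1h4n, Hist1h2al, Hist1h1t and the unread Hist1h2aa and Hist1h2ba are left out. Red bars are called higher, blue lower and grey not called, with DESeq2 scaling. Hist1h4i and Hist1h4d, red in the LPS panel, are below 0 by total-count scaling and by log2(TPM + 1). In the JQ1 panel during LPS, Hist1h3c, Hist1h2bb, Hist1h2ab and Hist1h3b form a blue run among red bars.

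Divergent pairs share the stretch between their starts, and 13 H2A and H2B pairs were at most 1000 bases apart. Of all histone genes tested, 57 of 67 fell with LPS and 43 of 67 with JQ1 alone (32.9% and 23.7% over all genes). With JQ1 during LPS 43 of 67 rose (24.4% over all genes). Whether pairs moved together more often than these shares would give was not tested. With LPS both genes were called in 11 pairs, of which 10 fell together. With JQ1 alone both were called in 11 pairs, of which 8 fell together and 3 went opposite ways. During LPS both were called in 6 pairs, of which 4 rose together, 1 fell together and 1 split. The split pair was Hist1h2ag (H2A) and Hist1h2bj (H2B), 264 bases apart, with 18.5% and 40.1% of their 50-base stretches unique. Hist1h2ag was at 20.03, 20.9 and 20.2 TPM in LPS and 19.2, 12.8 and 10.4 TPM in LPS + JQ1 libraries (-0.82 ± 0.24, adjusted p = 0.00144). Hist1h2bj was at 44.6, 49.3 and 48.4 TPM and 119, 132 and 117 TPM (1.09 ± 0.16, adjusted p = 6.94e-11). Hist1h2ac and Hist1h2bc, 250 bases apart, split without LPS (-0.92 ± 0.15 against 1.16 ± 0.10) and both rose during LPS.

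Genes differed in how far the GENCODE gene runs on the genome past the hairpin, introns included, a split made after the values were seen and not tested. These are not the RefSeq transcripts over which the reads were counted, which may end elsewhere. In 21 genes at least 100 bases of the gene follow it. Among them are Hist1h1c, Hist1h2bc, Hist1h4i, Hist1h4a and Hist3h2a, called higher with JQ1 alone. Hist1h1d, Hist1h2ac, Hist1h3e and Hist2h4, called lower with JQ1 alone, are also among them. During LPS, JQ1 raised 19 of these 21 genes and lowered 0 (median log2 fold change 1.46), and raised 21 and lowered 11 of the 40 tested genes with fewer (median 0.61). Without LPS it raised 6 and lowered 12 of the 21 (median -0.51), and raised 2 and lowered 29 of the 40 (median -1.07). With LPS alone 17 of the 21 and 35 of the 40 fell. Over all genes tested, 24.4% were called higher and 32.9% lower with JQ1 during LPS. The shares were 21.9% and 23.7% with JQ1 alone, and 32.9% were lower with LPS. Most of the 21 genes also have at least 50% unique 50-base stretches, so this split overlaps that by read sharing. Gene-level values do not show where in a transcript the reads lie.

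IL-10 left most histone genes uncalled, though most of their log2 fold changes were below 0. This held for 59 of 66 genes without LPS and 47 of 63 during LPS. Over all genes it held for 6589 of 12727 and 6100 of 11448. Without LPS, 0 of 66 genes tested were called by DESeq2 in either direction (1.80% of all genes were called higher and 1.01% lower), with 1 higher and 12 lower at an unadjusted p under 0.05, and a median log2 fold change of -0.25 against -0.01 over all genes. With the replicate number as a block 2 genes were called lower, without IL-10 replicate 3 there were 7, and without Unstimulated replicate 1 there was 1. edgeR called 0 in both directions. During LPS, 4 of 63 genes fell and 0 rose (8.81% of all genes were called lower and 8.38% higher), 3 and 14 being higher and lower at an unadjusted p under 0.05. They were the H2A genes Hist1h2ai (-0.77 ± 0.24, adjusted p = 0.0105) and Hist1h2ak (-0.62 ± 0.21, adjusted p = 0.0239) and the H3 genes Hist1h3h (-0.60 ± 0.20, adjusted p = 0.0207) and Hist1h3b (-0.56 ± 0.19, adjusted p = 0.0184). Hist1h3b, at 55.3, 56.3 and 52.6 TPM in LPS, was at 40.8, 40.6 and 38.4 TPM in LPS + IL-10 libraries without overlap. The replicate number as a block gave 8 genes lower, and leaving out a library gave 1 to 10, with 10 without LPS replicate 3, 2 without LPS replicate 1 or 2, and 1 without LPS + IL-10 replicate 3. The interaction of IL-10 with LPS gave 0 calls of 60 genes in DESeq2 (4.00% of all genes were called higher and 3.44% lower), with 4 higher and 0 lower at an unadjusted p under 0.05. Genes called higher with IL-10 during LPS numbered 2 without LPS replicate 2 or LPS + IL-10 replicate 3, and 1 without LPS replicate 1 or LPS + IL-10 replicate 1 or 2. The interaction called 2 genes higher without LPS replicate 2, and 1 without LPS replicate 1 or LPS + IL-10 replicate 1 or 3.

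JQ1 and IL-10 during LPS were also set against each other. LPS + JQ1 was higher than LPS + IL-10 in 44 of 67 genes (23.8% of all genes tested were called higher) and lower in 9 (31.6% of all genes were called lower), with a median log2 fold change of 0.99. Hist1h3h differed by 2.57 ± 0.18 (adjusted p = 5.47e-44), at 106, 120 and 135 TPM in LPS + JQ1 and 18.9, 16.9 and 17.7 TPM in LPS + IL-10 libraries. Hist1h3c differed by -2.75 ± 0.32 (adjusted p = 2.4e-17), at 3.71, 6.06 and 4.98 TPM against 28.3, 25.2 and 31.1 TPM. In both genes the 2 groups were separated by more than their ranges. These values share the LPS + JQ1 libraries with the comparison against LPS.

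Other gene lists related to histone supply were counted in the same fits, where 31.6% of all genes were called higher and 32.9% lower with LPS, 21.9% and 23.7% with JQ1 alone, and 24.4% and 32.9% with JQ1 during LPS. Of 27 DNA replication and cycling genes, 23 fell with LPS and 4 rose, 23 fell and 0 rose with JQ1 alone, and 20 fell and 2 rose with JQ1 during LPS, where the median log2 fold change was -1.17 against 1.03 for the histone genes. Mcm5, a subunit of the replicative helicase, was at 3.68, 4.53 and 6.54 TPM in LPS and 0.71, 0.94 and 1.27 TPM in LPS + JQ1 libraries (-2.64 ± 0.25, adjusted p = 2.2e-24). Rrm2, of ribonucleotide reductase, fell by 2.24 ± 0.36 (adjusted p = 1.18e-09) and Ccna2, cyclin A2, by 2.28 ± 0.50 (adjusted p = 1.26e-05). Mki67, the proliferation marker Ki-67, rose with LPS (2.24 ± 0.13, adjusted p = 5.1e-70) and fell with JQ1 during LPS (-3.24 ± 0.13, adjusted p = 7.39e-139). With JQ1 alone, Uhrf1 (-2.11 ± 0.20, adjusted p = 8.05e-24), which helps to maintain DNA methylation, and Tk1 (-1.99 ± 0.22, adjusted p = 7.36e-18), thymidine kinase, were among the genes that fell most.

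Of 23 histone mRNA factors measured, 8 rose and 10 fell with LPS (31.6% and 32.9% over all genes), 6 rose and 5 fell with JQ1 alone (21.9% and 23.7%), and 7 rose and 6 fell with JQ1 during LPS (24.4% and 32.9%), shares near those over all genes. Slbp, which binds the hairpin, was at 11.0, 10.5 and 15.1 TPM in LPS and 27.4, 33.0 and 28.4 TPM in LPS + JQ1 libraries (0.99 ± 0.11, adjusted p = 3.26e-18), and also rose with JQ1 alone (0.58 ± 0.11, adjusted p = 4.64e-07). Npat, the coactivator of histone genes, rose with JQ1 during LPS (0.57 ± 0.16, adjusted p = 0.00105). Ccne1, cyclin E1, which activates the kinase that phosphorylates Npat, fell with JQ1 without LPS (-1.07 ± 0.28, adjusted p = 0.000388) and during LPS (-2.33 ± 0.17, adjusted p = 2.06e-39). Hinfp, a transcription factor for H4 genes, fell with JQ1 during LPS (-1.37 ± 0.11, adjusted p = 4.33e-34), as did Cpsf2 (-0.81 ± 0.08, adjusted p = 1.86e-22), a subunit of the cleavage complex. Hinfp was at 8.58, 19.7 and 9.36 TPM on average in Unstimulated, LPS and LPS + JQ1 libraries. In the same order Cpsf2 was at 19.8, 38.9 and 27.3 TPM, and Ccne1 at 2.43, 12.8 and 3.16 TPM. Each was thus higher in LPS than in Unstimulated libraries. Lsm11, of the U7 particle that guides cleavage, fell with JQ1 alone (-0.55 ± 0.16, adjusted p = 0.00196).

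Of 11 replication-independent histone variants, which are also made outside S phase, 6 rose and 2 fell with JQ1 alone (21.9% and 23.7% over all genes). With JQ1 during LPS 7 rose and 2 fell (24.4% and 32.9%), while 4 rose and 6 fell with LPS (31.6% and 32.9%). H1f0, the linker histone of resting cells, was at 11.0, 9.94 and 8.40 TPM in LPS and 51.2, 52.4 and 56.7 TPM in LPS + JQ1 libraries (2.14 ± 0.14, adjusted p = 1.85e-53). H2afv rose by 1.72 ± 0.17 (adjusted p = 2.52e-24) and H2afx by 1.59 ± 0.14 (adjusted p = 7.02e-29), whereas Cenpa, the centromeric H3, fell by 1.71 ± 0.31 (adjusted p = 1.05e-07). H3f3b, which encodes H3.3, rose with JQ1 alone (1.75 ± 0.05, adjusted p = 1.19e-243). Of 11 histone chaperones measured, 2 rose and 6 fell with LPS, 2 rose and 4 fell with JQ1 alone, and 2 rose and 2 fell with JQ1 during LPS, against the same shares over all genes. Nasp, a chaperone of H3 and H4, rose from 7.79, 7.74 and 7.85 TPM to 24.6, 27.4 and 23.4 TPM with JQ1 during LPS (1.38 ± 0.11, adjusted p = 5.07e-32). Hira (0.78 ± 0.10, adjusted p = 2.54e-14), which deposits H3.3, also rose, and Hat1, an acetyltransferase of new H4 (-1.32 ± 0.17, adjusted p = 1.55e-13), and Ssrp1, of the FACT complex (-0.83 ± 0.08, adjusted p = 1.35e-24), fell. Chaf1a, of the CAF-1 complex, fell with JQ1 alone (-1.17 ± 0.18, adjusted p = 1.16e-09).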

How the data were processed

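Total RNA from 18 BMDM libraries was depleted of ribosomal RNA, prepared with a stranded kit and sequenced as 50-base pairs. Per the methods and the labels, the authors extracted reads with TagDust, aligned them to mm9 with STAR and quantified them with RSEM 1.2.31 at default settings, which divides reads that match several genes among them. The deposited files give, per gene, the expected count and the TPM made by the authors with RSEM. Expected counts were rounded to whole numbers here.

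DESeq2 1.42.0 (Wald test, group only, median-of-ratios scaling, all 18 libraries in 1 fit) was run on all genes, with Benjamini-Hochberg adjusted p under 0.05 as the threshold, which includes the JQ1 by LPS and IL-10 by LPS interactions. Fits were tested on simulated data. Alternatives were a replicate block, TMM and total-count scaling, a count filter, lane as covariate, edgeR 4.0.16, limma 3.58.1 on log2(TPM + 1) and log2(TPM + 0.1), the compared groups alone, and each library left out. The design calls the samples biologically matched and the labels number them, so same-numbered libraries were taken as paired, though no label states that a number marks a mouse. Deviations from group means correlated between -0.11 and 0.42 (median 0.08) for 45 same-numbered library pairs and had a median of -0.03 for 90 others. For LPS against LPS + JQ1 the same-numbered values were 0.053, -0.054 and -0.113. No 2 libraries were duplicates.

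Groups came from the labels. Named were the 5 highest genes by mean TPM in each class, up to 5 with the largest rise and fall per comparison (past that threshold, 10 or more normalised counts on average, same direction in all 3 pairs), genes called against the majority, the Hist3 and Hist4 genes, and up to 4 genes of each other list, with others named for their position or as examples after their values were seen. The histone genes and the gene lists were chosen with earlier results of these data known. No fold is given at or below 3 counts. Gene and hairpin positions are from GENCODE vM1 (mm9), promoters from RefSeq (GRCm38.p6). Protein sequences were not used here.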

Additional observations from a re-analysis of the deposited data

Results flagged for a closer look

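The JQ1 difference during LPS differed from that without LPS by the interaction test in 49 histone genes upward and 2 downward. Among genes with mean normalised counts of 10 or more, the greatest upward differences on the log2 scale were those of Hist1h2an (3.95), Hist1h3i (2.82), Hist1h1d (2.74) and Hist1h2ae (2.72), all 4 lower with JQ1 alone and higher with JQ1 during LPS. The fitted value for Hist2h2aa2 (6.30) has no size that can be read, since this near-copy of Hist2h2aa1 was at 0 in all 3 LPS libraries. The 2 downward differences were Hist1h3c (-1.28) and Hist1h3b (-0.87), H3 genes that were lower with JQ1 in both states. Hist1h2bb and Hist1h2ab lie between them. Total-count scaling and log2(TPM + 1) call neither difference.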

How the results depend on the processing

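The counts of histone genes called lower with LPS (57), in both directions with JQ1 alone (43 and 9), with JQ1 during LPS (43 and 12) and against IL-10 (44 and 9), and higher in the JQ1 interaction (49) stayed within 1.5 times under every alternative run. The replicate block changed none of the 155 calls of named histone genes, and gave 2 genes lower with IL-10 alone and 8 lower with IL-10 during LPS. The 3 genes higher with LPS became 0 with total-count scaling, 0 with log2(TPM + 1) and 0 with log2(TPM + 0.1), and leaving out a library gave 1 to 4. Hist1h4d turned to -0.53 with total-count scaling and -0.40 on both TPM scales, Hist1h4i to -0.46, -0.30 and -0.30. Genes lower with IL-10 alone became 1 with lane as covariate and 0 to 7 leaving out a library. Genes higher with IL-10 during LPS became 1 with TMM, 3 with total-count scaling and 3 on each TPM scale (0 to 2 leaving out a library), and genes lower became 1 with total-count scaling, 7 with lane, 1 with the compared groups alone and 1 to 10 leaving out a library. The 2 genes below 0 in the JQ1 interaction became 0 with total-count scaling, 0 on log2(TPM + 1) and 1 on log2(TPM + 0.1). The IL-10 interaction gave 1 gene higher with total-count scaling and 1 on each TPM scale, and 0 to 2 leaving out a library. The summed H1 log2 ratio for IL-10 during LPS was 0.0824 by TPM and 0.0772 by total counts, and the summed H4 log2 ratio for JQ1 alone -0.110 and -0.0794, each opposite in sign to the median-of-ratios value. The cause of these shifts was not tested. Low counts limit Hist1h1t, Hist1h2al, Hist1h4n, Hist3h2ba, Hist1h2bp, Hist1h2ah and Hist1h3g in the LPS groups, and reads shared between near-copies limit 29 genes.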
